A study of Mus musculus with 18 samples.

Results

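The 33 genes described here carry glucose through glycolysis or respond to low oxygen. They were chosen by name, among 55401 gene identifiers in the count files: 15 glycolytic enzymes, 3 regulators of glycolytic flux, 4 glucose and lactate transporters, the transcription factor gene Hif1a, and 10 targets of the hypoxia-inducible factor (HIF) that do not belong to glycolysis. All 33 were matched and all passed the filter on low counts. Gene expression was measured by RNA sequencing in gp38+ (podoplanin-bearing) stromal cells, a gate that holds fibroblasts and lymphatic endothelium, isolated from mouse salivary glands by flow sorting. The animals were wild-type Balb/c and 8 to 12 weeks old. The 18 libraries, each with a subject number of its own, form 6 groups of 3, and replicates are numbered through the series. Hour 0 (replicates 10, 11 and 12) was not infected. In the other groups a replication-defective adenovirus 5 had been given into the submandibular gland by cannulating its duct, and cells were taken 3 hours (hour 3, replicates 4, 5 and 6), 1 day (13, 14 and 15), 2 days (16, 17 and 18), 8 days (1, 2 and 3) or 23 days later (7, 8 and 9). A cannulated group that received no virus is not among them, so the effects of procedure and virus cannot be told apart wherever hour 0 is the reference.

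Glycolysis splits glucose into pyruvate in the cytosol, and lactate dehydrogenase turns pyruvate into lactate, which leaves the cell through monocarboxylate transporters. In low oxygen the prolyl hydroxylases stop marking HIF-1 alpha for destruction, and the stabilised factor, paired with ARNT, binds a short core sequence in DNA and raises the genes of glucose uptake, glycolysis, blood vessel growth and collagen hydroxylation. Cytokines and growth factors can raise Hif1a and glycolytic genes without low oxygen, and fibroblasts that are activated in inflamed tissue are known for a high rate of glycolysis.

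Total counts per library ran from 4398234 to 15234431, and levels are given as CPM, the count scaled to the library total. The libraries fall into sets that follow the replicate numbers. In replicates 10 to 18, which hold hour 0 and the first days, between 28124 and 42342 genes had counts, and in replicates 1 to 9, which hold the other times, between 16488 and 21542 did. The background, read from 1502 sensory receptor genes that salivary stroma should not express, was 0.0532 to 0.318 RPKM (CPM per kb of exon) in the former set and at most 0.0057 RPKM in the latter. These background rates, and the filter of 5 CPM used below, were taken on library totals, without TMM. Set and time therefore cannot be told apart when hour 3, day 8 or day 23 is compared with hour 0. The 5 other comparisons used here stay within a set. Within replicates 10 to 18, day 2 stood apart, with a background of 0.296 to 0.318 RPKM and 39801 to 42342 genes with counts. On day 1 the ranges were 0.0532 to 0.109 RPKM and 28124 to 31630 genes. At hour 0 they were 0.108 to 0.175 RPKM and 30681 to 33237 genes. Background and time therefore cannot be told apart in the comparisons of day 2 either. Markers of fibroblasts summed to between 11069 and 43951 CPM (scaled by edgeR's TMM factors) over the 18 libraries, and all 9 of them had counts in every group. Markers of acinar and duct secretory cells ran from 223 to 227995 CPM. In bulk samples like these, fewer cells of a type and less RNA per cell cannot be told apart.

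The promoters of 6 members are shown as examples of the 3 patterns below, with peaks at hour 3 (Hk2, Slc2a1 and Ldha), on day 1 (Pgk1) and on day 8 (Pdk1 and Egln3). Each is the 250 bases before the first annotated start site, from RefSeq on GRCm38.p6, written 5′ to 3′ on the gene's strand. That of Slc2a1 stops after 216 bases, where the gene starts in GENCODE, and that of Ldha lies in an intron of a longer GENCODE transcript. Capitals mark ACGTG or GCGTG, the 2 forms of the HIF core, on either strand, where they read CACGT or CACGC.
Hk2, chr6:82774455-82774704, reverse strand: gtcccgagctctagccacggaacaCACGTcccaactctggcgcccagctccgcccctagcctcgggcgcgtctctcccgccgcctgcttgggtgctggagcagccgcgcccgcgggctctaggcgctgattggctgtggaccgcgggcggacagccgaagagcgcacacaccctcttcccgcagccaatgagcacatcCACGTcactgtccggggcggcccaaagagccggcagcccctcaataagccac
Slc2a1, chr4:119108495-119108710, forward strand: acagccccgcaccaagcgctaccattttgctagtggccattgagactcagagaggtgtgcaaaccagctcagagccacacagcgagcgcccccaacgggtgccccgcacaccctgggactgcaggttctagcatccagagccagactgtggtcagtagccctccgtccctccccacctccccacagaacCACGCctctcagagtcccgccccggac
Ldha, chr7:46845554-46845803, forward strand: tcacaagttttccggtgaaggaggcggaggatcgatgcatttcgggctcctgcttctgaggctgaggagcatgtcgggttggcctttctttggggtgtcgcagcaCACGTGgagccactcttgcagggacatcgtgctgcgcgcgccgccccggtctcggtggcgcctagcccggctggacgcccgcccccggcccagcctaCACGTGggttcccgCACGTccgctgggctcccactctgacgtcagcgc
Pgk1, chrX:106186850-106187099, forward strand: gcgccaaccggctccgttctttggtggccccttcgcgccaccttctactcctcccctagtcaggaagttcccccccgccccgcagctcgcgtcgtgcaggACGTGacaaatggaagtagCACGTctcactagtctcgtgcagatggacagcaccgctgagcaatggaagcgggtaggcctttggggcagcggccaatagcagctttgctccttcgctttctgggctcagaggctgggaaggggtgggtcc
Pdk1, chr2:71872974-71873223, forward strand: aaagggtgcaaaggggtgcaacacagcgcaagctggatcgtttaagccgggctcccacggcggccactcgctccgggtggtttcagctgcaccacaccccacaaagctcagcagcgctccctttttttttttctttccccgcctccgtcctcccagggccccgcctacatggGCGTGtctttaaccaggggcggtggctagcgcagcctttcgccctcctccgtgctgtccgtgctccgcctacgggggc
Egln3, chr12:54203875-54204124, reverse strand: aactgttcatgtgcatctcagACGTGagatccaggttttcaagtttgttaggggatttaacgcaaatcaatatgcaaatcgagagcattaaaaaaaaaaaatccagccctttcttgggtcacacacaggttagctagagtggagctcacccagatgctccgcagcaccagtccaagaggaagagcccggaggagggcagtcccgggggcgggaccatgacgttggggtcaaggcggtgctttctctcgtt

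The Ldha stretch holds 5 matches, 4 of them from a pair of palindromic CACGTG sequences that count once on each strand, and its nearest match lies 34 bases before the start. Hk2 and Pgk1 hold 2 each, and Slc2a1, Pdk1 and Egln3 hold 1 each, 61, 78 and 229 bases before the RefSeq start. Slc2a1 and Pdk1 each have a further match, 36 and 2 bases before that start, which the end of the printed stretch cuts. Of the 33 members, 31 had entries in the RefSeq table, with 43 promoters of 300 bases (250 before and 50 after the start). Slc2a3 and Ndrg1 had none. ACGTG or GCGTG occurred in 81.4% of these 43 promoters and in 43.8% of all 32851 promoters of that length, and at least 2 matches occurred in 65.1% and 20.6%. The palindrome CACGTG, which contains ACGTG on both strands, occurred in 14.0% and 7.15%. Members' promoters were also richer in CG steps, with a median of 20 against 7 over all promoters, and both forms of the core contain a CG. Among the promoters of glycolytic enzymes, regulators and transporters 78.1% of 32 held a match, and among those of HIF targets outside glycolysis 90% of 10. The listed promoters of Gpi1, Eno2 and Tpi1 held none. A match is a description of these letters only.

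Most members took 1 of 3 courses. The first was a peak at hour 3, where Hk1, Hk2, Ldha, Pfkfb3, Slc2a1, Slc2a3, Slc16a1, Hif1a, Vegfa, Ndrg1 and Adm had all their libraries above those of every other group. The second was a high on day 1 in Gpi1, Pfkl and the lower trunk of the pathway from Gapdh to Pkm. The third was a high on day 8 in Aldoc, Tpi1, Pdk1 and Egln3. All these courses use TMM and compare across the sets. With library totals the log2 fold changes of Hk1 and Slc16a1 against hour 0 were 0.62 and 2.73 at hour 3 and greater on day 1 (1.08 and 2.88). Slc2a3 was then at 0.29 at hour 3 and 0.74 on day 2, and Ldha at 1.70 at hour 3 and 1.61 on day 1. On the same scale hour 3 gave 5.23 for Hk2, 3.34 for Pfkfb3, 3.25 for Slc2a1 and 3.11 for Hif1a. Adm, Vegfa and Ndrg1 were at 2.10, 2.00 and 1.04. By mean level 12 of 33 members were highest at hour 3, 10 on day 1, 5 on day 8, 3 on day 2, 2 on day 23 and 1 at hour 0. Over the 6 groups 31 of 33 members changed (edgeR quasi-likelihood F test, Benjamini-Hochberg adjusted p under 0.05), and 83.9% of all 27525 genes tested did. The exceptions were Bnip3 (adjusted p = 0.0691) and Car9 (adjusted p = 0.0958).

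Against hour 0, 18 members rose and 5 fell at hour 3, where 16.9% of all genes tested were called higher and 43.1% lower. On day 1, 19 rose and 4 fell, beside 9.67% and 12.8% of all genes. On day 2, 12 rose and 1 fell, beside 5.12% and 9.63%. On day 8, 16 rose and 5 fell, beside 11.2% and 32.7%, and on day 23, 9 rose and 1 fell, beside 8.51% and 25.4%. The members' median log2 fold change in these comparisons was 0.77, 0.72, 0.40, 0.56 and 0.21, against -1.41, -0.41, 0.29, -0.68 and -0.53 over all genes tested. In the steps within a set, 1 member rose and 12 fell from day 1 to day 2 (12.0% and 11.2% of all genes), 8 rose and 16 fell from hour 3 to day 8 (16.5% and 14.1%; 13 rose and 11 fell with library totals), and 2 rose and 6 fell from day 8 to day 23 (2.25% and 3.08%). Their medians were -0.48, -0.57 and -0.29, against 0.78, 0 and 0 over all genes. Counted in either direction, 60.0%, 22.5%, 14.8%, 43.9% and 34.0% of all genes differed from hour 0 at the 5 times in order, and 23.2%, 30.7% and 5.32% differed in the 3 steps. Single libraries moved several of the small counts. The 9 rises of day 23 became 5 without replicate 2, 8 or 11, and its 1 fall became 0 without replicate 8 or 9 and 2 without replicate 7. The 4 falls of day 1 became 2 without replicate 11 or 15, and the 1 fall of day 2 became 2 without replicate 18. The 5 falls of day 8 became 1 without replicate 10, 2 without replicate 1, 2 or 3, and 3 without replicate 11, 16, 17 or 18. Of the steps, the 12 falls from day 1 to day 2 became 7 without replicate 15 or 17, and the 6 from day 8 to day 23 became 3 without replicate 2, 3 or 9. The 1 rise from day 1 to day 2 became 0 without replicate 14, 16 or 17, 2 without replicate 2, 4, 9 or 15, and 3 without replicate 7 or 8.

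Many of the 27525 genes are at low counts, and the members are mostly not. Among the 14147 genes with at least 5 CPM in 3 or more libraries, which include 31 members, the share called higher against hour 0 was 28.5% at hour 3, 21.2% on day 1, 12.2% on day 2, 14.9% on day 8 and 9.65% on day 23. The members called higher in that fit numbered 17, 21, 14, 14 and 5 of 31, and their medians were 0.66, 0.90, 0.51, 0.46 and 0.12. On day 23 the members' share was the nearest to that background. Scaling bears on hour 3 most of all: with library totals in place of TMM the median of all genes moved by -1.16 on the log2 scale, and 10 members rose and 14 fell. The higher share among all called genes went there from 28.1% to 7.09%. The medians of day 2, day 8 and day 23 against hour 0 moved by 0.37, -0.39 and -0.44, those shares went from 34.7% to 66.7%, from 25.5% to 10.3% and from 25.1% to 6.05%, and the rises among members became 17, 10 and 1. From day 1 to day 2 and from hour 3 to day 8 the medians moved by 0.27 and 0.76, and the shares from 51.9% to 77.9% and from 53.9% to 81.9%. With DESeq2 size factors the share was 52.7% on day 2 and 71.0% from day 1 to day 2.

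**Figure D1:**
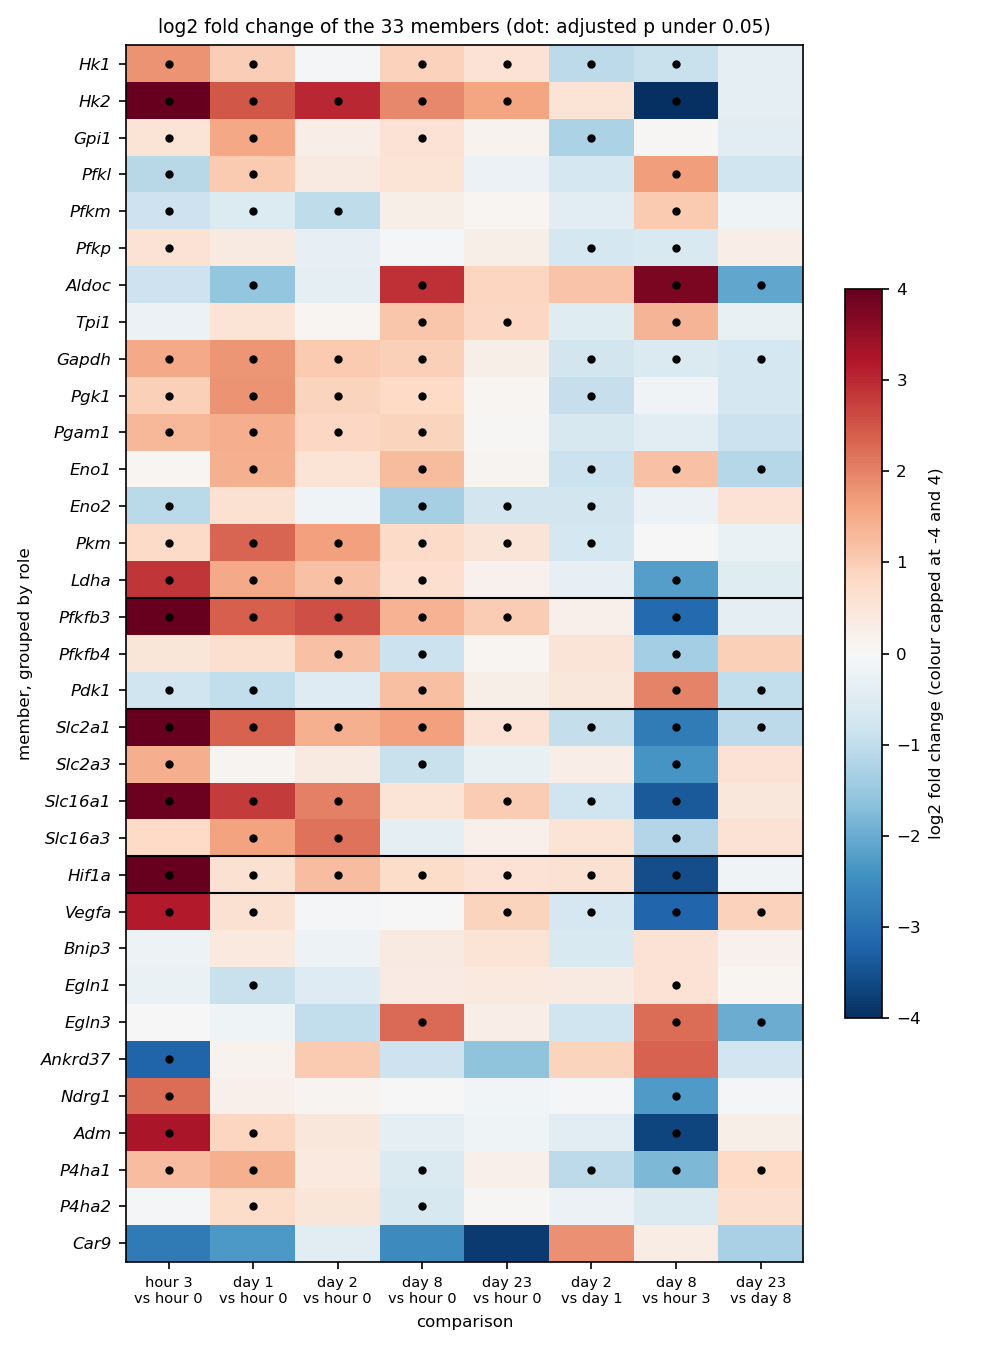
Log2 fold change of the 33 members (rows, grouped by role with black lines between the roles) in the 8 comparisons (columns). Red is higher and blue lower in the time named first, colour stops at 4 and -4, and a dot marks an adjusted p under 0.05. Hk2, Pfkfb3, Slc2a1, Slc16a1 and Hif1a share the darkest reds at hour 3, while Aldoc, Pdk1 and Egln3 are red on day 8 against hour 3.

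Glucose enters fibroblasts mainly through GLUT1, the product of Slc2a1 (ENSMUSG00000028645, chromosome 4, 119108711 to 119137983, GRCm38). Slc2a1 was at 14.1, 16.0 and 26.0 CPM at hour 0 and at 439, 402 and 366 at hour 3, given here and below in order of replicate number. It was at 118, 61.5 and 112 CPM on day 1, 54.5, 45.6 and 50.3 on day 2, 59.7, 59.7 and 54.7 on day 8, and 22.7, 29.1 and 33.1 on day 23. All libraries of hour 3 lay above those of every other group, and hour 0 overlapped only day 23. The rise was 21.4-fold at hour 3 (log2 fold change 4.42, SE 0.25, adjusted p = 1.52e-14), 5.17-fold on day 1, 2.67-fold on day 2 and 3.09-fold on day 8. With library totals the log2 fold change at hour 3 was 3.25. Slc2a1 then fell by 1.04 on the log2 scale from day 8 to day 23 (SE 0.22, adjusted p = 0.00468). Its value on day 23 against hour 0 (0.59, adjusted p = 0.046) lost the call without any 1 of 12 libraries, namely replicates 2 to 6, 8 to 11 and 16 to 18 (adjusted p 0.0508 to 0.183).

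Slc2a3 encodes GLUT3, a transporter of higher affinity. It was low, at 4.19 to 8.03 CPM at hour 0, and rose to 15.3 to 16.5 at hour 3 (log2 fold change 1.47, SE 0.36, adjusted p = 0.00133; 0.29 and no call with library totals). Per kb of exon GLUT1 was the more abundant at every time, with 86.2% ± 6.85 of the counts of the pair at hour 0 and 98.1% ± 0.133 at hour 3 (SD, n = 3). The call of a lower Slc2a3 on day 8 (-0.90, adjusted p = 0.0466) was lost without any 1 of 12 libraries, all but replicates 7, 8, 9, 11, 14 and 15 (adjusted p 0.0504 to 0.255).

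The lactate carriers Slc16a1 (MCT1) and Slc16a3 (MCT4) differed in timing. Slc16a1 was at 6.67, 8.27 and 5.79 CPM at hour 0, 92.8, 110 and 107 at hour 3, and 59.8, 29.2 and 54.2 on day 1. It was at 26.1, 24.9 and 31.7 CPM on day 2, 10.9, 8.36 and 11.2 on day 8, and 18.5, 7.68 and 16.8 on day 23. The libraries of hour 3 lay above all others, and those of day 1 and day 2 above those of hour 0. The rise was 15.0-fold at hour 3 (log2 fold change 3.91, SE 0.29, adjusted p = 5.88e-12), 6.93-fold on day 1 (2.79, SE 0.28, adjusted p = 5.05e-09) and 4.01-fold on day 2. With library totals the log2 fold change was 2.73 at hour 3 and 2.88 on day 1. Slc16a3, the carrier known for export from glycolytic cells, was at 3.68, 4.42 and 2.73 CPM at hour 0, 14.7, 5.75 and 12.4 on day 1, and 17.7, 13.5 and 17.2 on day 2. It rose on day 1 (1.61, SE 0.37, adjusted p = 0.00139) and on day 2 (2.16, SE 0.37, adjusted p = 6.85e-05) but was not called at hour 3 (0.79, adjusted p = 0.068). At hour 0 an estimated 16.4% of its level lay within the background rate. Slc16a1 fell from day 1 to day 2 (-0.79, adjusted p = 0.0273), a call lost without replicate 13, 15, 16 or 17 (adjusted p = 0.128, 0.0938, 0.0770 and 0.0950). Its rise on day 23 (1.02, adjusted p = 0.0103) was lost without replicate 7 (adjusted p = 0.0602).

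Hexokinase traps glucose in the cell as glucose 6-phosphate, and Hk2 (ENSMUSG00000000628, chromosome 6, 82725025 to 82774454) encodes its inducible, mitochondria-bound form. Hk2 was at 31.7, 36.2 and 41.6 CPM at hour 0 and at 3541, 2807 and 2951 at hour 3. Its libraries then held 204, 160 and 249 CPM on day 1, 335, 334 and 226 on day 2, 179, 108 and 133 on day 8, and 133, 78.3 and 117 on day 23. No library of an infected group overlapped hour 0, and hour 3 stood above all others. The rise of 84.8-fold at hour 3 (log2 fold change 6.41, SE 0.27, adjusted p = 1.57e-16) was the largest of any member in any comparison here. With library totals the log2 fold change of Hk2 at hour 3 was 5.23. Hk2 was 8.15-fold higher on day 2 (3.03, SE 0.23, adjusted p = 7.08e-11) and 2.99-fold higher on day 23 (1.58, SE 0.22, adjusted p = 2.06e-05) than at hour 0. On the scale per kb of exon, Hk2 at hour 3 was the highest level of any member at any time, at a mean of 519 RPKM, followed by Hif1a at hour 3 at 336. The constitutive Hk1 was at 83.3 to 118 CPM at hour 0 and 284 to 463 at hour 3, a 3.49-fold rise (1.80, SE 0.19, adjusted p = 7.11e-09). It fell from day 1 to day 2 (-1.06, SE 0.19, adjusted p = 0.000194), a step at which Hk2 was not called (0.54, adjusted p = 0.0636). Hk1 on day 23 (0.58, adjusted p = 0.0219) lost its call without replicate 2, 8, 9 or 11 (adjusted p 0.0678 to 0.103).

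Gpi1, which turns glucose 6-phosphate into fructose 6-phosphate, was at 86.7, 91.4 and 92.9 CPM at hour 0 and 265, 210 and 318 on day 1. It rose 2.93-fold on day 1 (1.55, SE 0.17, adjusted p = 1.86e-08) and fell by 1.28 on the log2 scale from day 1 to day 2 (SE 0.17, adjusted p = 3.27e-06). The 3 phosphofructokinase genes, whose enzyme makes the committed step, moved apart from one another at hour 3: Pfkl fell (-1.12, SE 0.32, adjusted p = 0.00473), Pfkm fell (-0.82, SE 0.20, adjusted p = 0.00149) and Pfkp rose (0.57, SE 0.20, adjusted p = 0.0186). That rise of Pfkp was lost without replicate 4 or 11 (adjusted p = 0.185 and 0.112), under the DESeq2 test (adjusted p = 0.0529) and under the filter of 5 CPM (adjusted p = 0.0569), and turned to -0.61 with library totals (adjusted p = 0.0135). Pfkl rose on day 1 (1.06, SE 0.30, adjusted p = 0.0101), from 25.6 to 28.2 CPM at hour 0 to 49.1 to 64.4, though without replicate 15 the adjusted p was 0.0509. Pfkm fell on day 2 (-1.01, SE 0.20, adjusted p = 0.000482), and its fall on day 1 (-0.55, adjusted p = 0.0416) was lost in 13 of 18 fits that each left out 1 library, all but those without replicate 4, 7, 8, 9 or 14 (adjusted p 0.0501 to 0.211). From hour 3 to day 8 Pfkl rose by 1.66 (adjusted p = 0.000105) and Pfkm by 1.06 on the log2 scale (adjusted p = 9.59e-05).

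Aldoc, an aldolase best known from the brain (ENSMUSG00000017390, chromosome 11, 78322968 to 78327781), was highest on day 8. It was at 2.81, 4.30 and 2.98 CPM at hour 0, 0.912, 2.11 and 2.57 at hour 3, 1.45, 1.13 and 0.822 on day 1, and 2.10, 1.67 and 3.76 on day 2. The next libraries held 27.3, 26.4 and 23.3 CPM on day 8 and 4.99, 4.80 and 8.76 on day 23. The libraries of day 8 lay above all others without overlap. Aldoc rose 13.6-fold from hour 3 to day 8 (3.77, SE 0.43, adjusted p = 3.05e-08) and fell by 2.07 on the log2 scale from day 8 to day 23 (SE 0.39, adjusted p = 0.00144). Against hour 0 the rise on day 8 was 7.63-fold (2.93, SE 0.40, adjusted p = 4.66e-06). Its fall on day 1 (-1.55, adjusted p = 0.00744) was lost in fits of the 2 groups alone (adjusted p = 0.155) and of the 9 libraries of that set (adjusted p = 0.121), and an estimated 17.3% of its day 1 level lay within background. Even on day 8 Aldoc made up 8.42% ± 1.29 of aldolase counts per kb (SD, n = 3), and Aldoa, the form of muscle and most tissues, 91.6% ± 1.29.

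Tpi1, which interconverts the 3-carbon products of aldolase, was at 32.9 to 44.9 CPM at hour 0, 25.8 to 38.2 at hour 3 and 74.5 to 91.9 on day 8. It rose from hour 3 to day 8 (1.34, SE 0.22, adjusted p = 1.13e-05) and was higher than at hour 0 on day 8 (1.11, SE 0.21, adjusted p = 0.00037) and on day 23 (0.82, SE 0.22, adjusted p = 0.00724; 0.37 and no call with library totals). Its value on day 1 was not called (0.56, adjusted p = 0.061). With library totals Tpi1 was called higher on day 1 (0.65, adjusted p = 0.0231) and lower at hour 3 (-1.40, adjusted p = 2.14e-06) than at hour 0.

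The enzymes of the lower trunk, from Gapdh to Pkm, were highest on day 1. Pkm (pyruvate kinase, ENSMUSG00000032294, chromosome 9, 59656368 to 59679375) was at 151, 98.1 and 146 CPM at hour 0, 229, 214 and 232 at hour 3, and 724, 499 and 745 on day 1. It was at 402, 331 and 484 CPM on day 2, 213, 235 and 226 on day 8, and 195, 209 and 159 on day 23. All day 1 libraries lay above those of every other group, and day 2 came next. The rise on day 1 was 4.98-fold (2.32, SE 0.19, adjusted p = 1.57e-10) and 3.08-fold on day 2 (1.63, SE 0.19, adjusted p = 1.78e-07). Pkm fell from day 1 to day 2 (-0.69, adjusted p = 0.00875; 0.0502 without replicate 15 and 0.0686 without replicate 17). On day 23 its call (0.51, adjusted p = 0.0377) was lost without replicate 2, 6, 7, 8 or 11 (adjusted p 0.0511 to 0.199).

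Pgk1, which makes the first ATP of the pathway, was at 25.7, 20.7 and 18.5 CPM at hour 0 and 83.1, 55.9 and 86.2 on day 1, a 3.47-fold rise (1.79, SE 0.25, adjusted p = 2.09e-06) with no overlap. Gapdh, often used as an unchanging reference gene, was at 86.0, 52.9 and 92.7 CPM at hour 0, 248, 200 and 215 at hour 3, and 285, 198 and 313 on day 1. It rose 2.86-fold at hour 3 (1.52, SE 0.20, adjusted p = 2.95e-07; 0.34 and no call with library totals), 3.43-fold on day 1 (1.78, SE 0.20, adjusted p = 3.22e-08) and 2.07-fold on day 2. Gapdh passed the test in 4 of the 5 comparisons with hour 0. Pgam1, the mutase, rose 2.51-fold at hour 3 (no call with library totals), 2.75-fold on day 1 and 1.77-fold on day 2, the last lost without replicate 11, 16 or 18 (adjusted p = 0.208, 0.0916 and 0.151). Pgk1 on day 2 (0.88, adjusted p = 0.0145) was lost without replicate 11, 12 or 18 (adjusted p = 0.0540, 0.0843 and 0.132).

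Eno1, the enolase of most tissues, was high at 2 separate times. It was at 84.4, 61.5 and 64.0 CPM at hour 0, 74.4, 70.0 and 78.9 at hour 3, 219, 128 and 212 on day 1, and 151, 178 and 179 on day 8. The rises were 2.67-fold on day 1 (1.41, SE 0.22, adjusted p = 7.04e-06) and 2.42-fold on day 8 (1.27, SE 0.21, adjusted p = 7.65e-05), while hour 3 overlapped hour 0 (0.09, adjusted p = 0.726). With library totals Eno1 was called lower at hour 3 than at hour 0 (-1.09, adjusted p = 6.36e-05). Within its set Eno1 rose from hour 3 to day 8 (1.18, SE 0.21, adjusted p = 5.51e-05) and fell from day 8 to day 23 (-1.16, SE 0.21, adjusted p = 0.00138). Eno2, the form known from neurons, fell at hour 3 (-1.08, SE 0.25, adjusted p = 0.000899) and on day 8 (-1.33, SE 0.25, adjusted p = 0.000269). Its fall on day 23 (-0.75, adjusted p = 0.026) was lost without replicate 8, 9 or 11 (adjusted p = 0.122, 0.0664 and 0.0882), and that from day 1 to day 2 (-0.75, adjusted p = 0.028) without replicate 2, 14, 15, 17 or 18 (adjusted p 0.0519 to 0.180).

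Ldha, the lactate dehydrogenase subunit that favours lactate, was highest at hour 3 (log2 fold 1.70, and 1.61 on day 1, with library totals). It was at 75.1, 58.7 and 82.4 CPM at hour 0, 521, 541 and 520 at hour 3, 249, 126 and 242 on day 1, and 168, 149 and 174 on day 2. It stood at 121, 108 and 113 CPM on day 8 and at 89.5, 95.3 and 57.5 on day 23, where it overlapped hour 0. It rose 7.31-fold at hour 3 (2.87, SE 0.22, adjusted p = 1.15e-11), 2.85-fold on day 1 and 2.27-fold on day 2. The call on day 8 (0.66, adjusted p = 0.0144) was lost without replicate 2 or 11 (adjusted p = 0.0636 and 0.0714), and also lost there were those of Gpi1 without replicate 2 (adjusted p = 0.0679), of Pgk1 without replicate 2 or 3 (0.0702 and 0.0505) and of Pgam1 without replicate 2 or 11 (0.0698 and 0.0633).

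**Figure D2:**
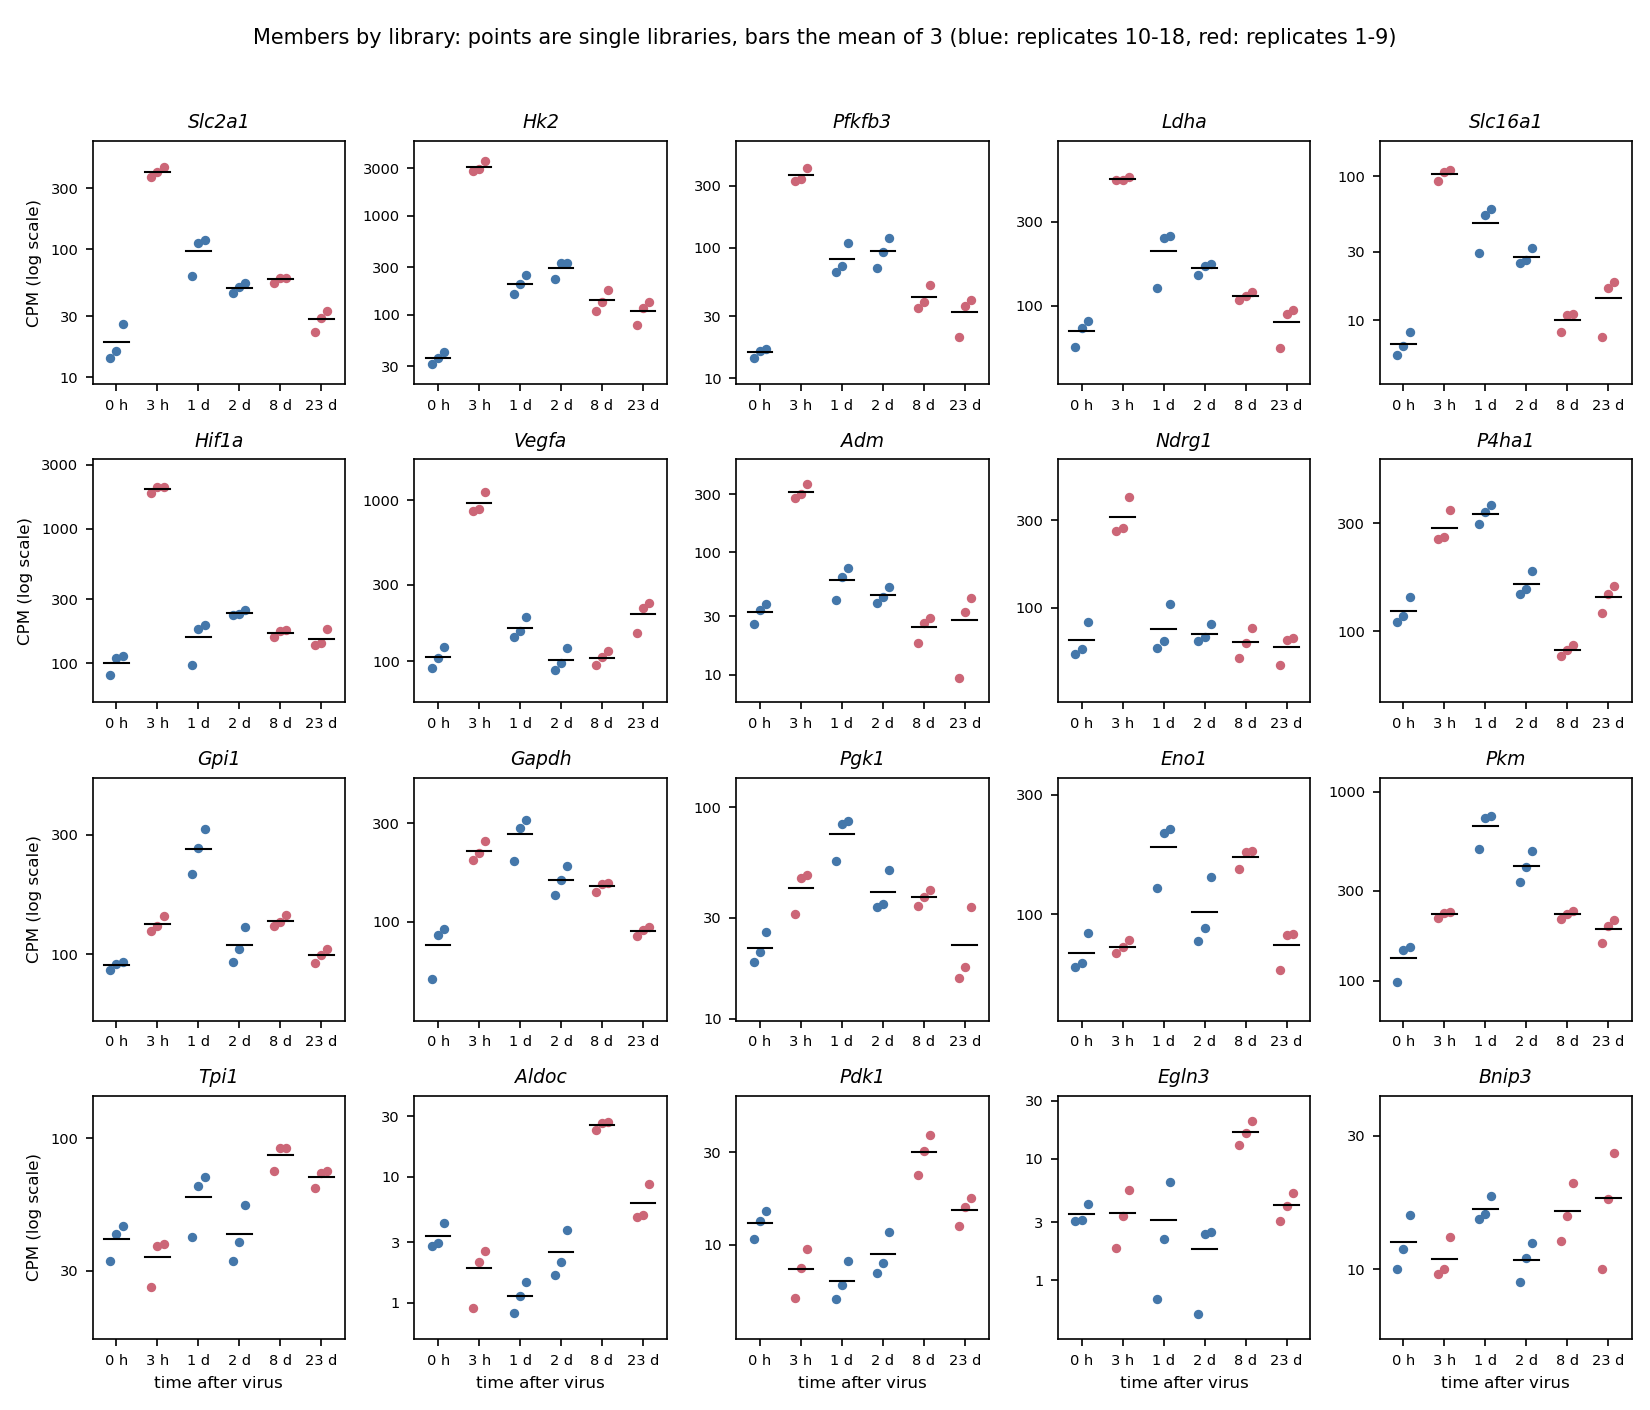
CPM, scaled by TMM, of 20 members (panels) in each of the 18 libraries (points) at 6 times, on log axes, with the group mean of 3 as a bar. Replicates 10 to 18 are blue and 1 to 9 red. Slc2a1, Hk2, Ldha and Hif1a stand highest at 3 h, Gpi1, Pgk1 and Pkm at 1 d, and Aldoc, Pdk1 and Egln3 at 8 d.

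Pfkfb3 makes fructose 2,6-bisphosphate, the strongest activator of phosphofructokinase. It was at 14.4, 16.3 and 16.6 CPM at hour 0, 325, 413 and 340 at hour 3, 72.9, 109 and 65.2 on day 1, and 120, 93.7 and 69.7 on day 2. On day 8 it was at 52.3, 34.3 and 38.2 CPM and on day 23 at 39.8, 20.6 and 35.7, so every infected library lay above hour 0. The rise was 22.8-fold at hour 3 (4.51, SE 0.26, adjusted p = 3.88e-14), 5.21-fold on day 1 and 5.96-fold on day 2. From day 1 to day 2 it was not called (0.19, adjusted p = 0.521), while 8 of 15 enzymes fell, among them Pfkp (0.0782 without replicate 14) and Gapdh (0.0556 and 0.0567 without replicate 15 or 17). Its relative Pfkfb4 rose on day 2 (1.17, SE 0.34, adjusted p = 0.0175), from 7.69 to 11.0 CPM at hour 0 to 18.0 to 22.9, though not without replicate 12, 17 or 18 (adjusted p = 0.0894, 0.0656 and 0.0570). Pfkfb4 on day 8 (-0.87, adjusted p = 0.0445) lost its call in 8 fits, those without replicate 1, 2, 3, 10, 11, 16, 17 or 18 (adjusted p 0.0526 to 0.129).

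Pdk1 encodes a kinase that holds pyruvate back from the mitochondrion by switching off pyruvate dehydrogenase, and is a classical HIF target. It was at 13.3, 15.0 and 10.8 CPM at hour 0, 5.34, 7.64 and 9.52 at hour 3, and 8.22, 6.18 and 5.23 on day 1. The day 8 libraries held 22.8, 36.7 and 30.5 CPM, above every other library, and on day 23 at 12.5, 17.5 and 15.6. It rose 3.99-fold from hour 3 to day 8 (2.00, SE 0.29, adjusted p = 2.02e-06) and 2.31-fold against hour 0 (1.21, SE 0.28, adjusted p = 0.0017). The falls at hour 3 (-0.79, adjusted p = 0.0217) and day 1 (-0.99, adjusted p = 0.0107) were each lost without either of 2 libraries, replicates 4 and 11 for the former (adjusted p = 0.0981 and 0.0765) and replicates 11 and 15 for the latter (0.0502 and 0.0690). The fall from day 8 to day 23 (-0.97, adjusted p = 0.036) was lost without replicate 2, 3, 7 or 9 (adjusted p = 0.253, 0.119, 0.109 and 0.0787).

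Hif1a (ENSMUSG00000021109, chromosome 12, 73901375 to 73947530) encodes the oxygen-regulated subunit of HIF-1, whose protein, not measured here, is controlled mainly by its stability. The transcript was at 113, 82.0 and 109 CPM at hour 0 and at 2046, 2055 and 1836 at hour 3. It was at 191, 96.6 and 179 CPM on day 1, 249, 232 and 230 on day 2, 176, 156 and 174 on day 8, and 136, 179 and 142 on day 23. Only day 1 overlapped hour 0, through replicate 14. Hif1a rose 19.5-fold at hour 3 (4.29, SE 0.22, adjusted p = 4.58e-15) and 2.34-fold on day 2 (1.23, SE 0.20, adjusted p = 2.85e-05), and on day 8 the rise was 1.67-fold (0.74, adjusted p = 0.00538; 0.34 and no call with library totals). It fell by 3.55 on the log2 scale from hour 3 to day 8 (SE 0.21, adjusted p = 1.16e-13). With library totals Hif1a was at 3.11 at hour 3 against hour 0 and at -2.77 on day 8 against hour 3. The call on day 1 (0.62, adjusted p = 0.0214) was lost without replicate 11, 13 or 15 (adjusted p = 0.129, 0.154 and 0.112), that on day 23 (0.59, adjusted p = 0.0254) without replicate 2, 8 or 11 (0.0751, 0.117 and 0.112), and that from day 1 to day 2 (0.61, adjusted p = 0.0261) without replicate 14, 16, 17 or 18 (0.129, 0.0813, 0.0616 and 0.0512).

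Of the 10 HIF targets outside glycolysis, 4 rose at hour 3: Vegfa, Adm, Ndrg1 and P4ha1. Vegfa, the growth factor of blood vessels (ENSMUSG00000023951, chromosome 17, 46016993 to 46032369), was at 91.5, 105 and 123 CPM at hour 0, 884, 1128 and 866 at hour 3, and 141, 154 and 189 on day 1. It was at 121, 88.9 and 97.0 CPM on day 2, 106, 95.1 and 116 on day 8, and 149, 214 and 231 on day 23. Hour 3 stood above all, and day 2 and day 8 overlapped hour 0. Vegfa rose 8.99-fold at hour 3 (3.17, SE 0.20, adjusted p = 1.84e-13), fell back by day 8 (-3.18 against hour 3, SE 0.20, adjusted p = 2.4e-13) and rose again from day 8 to day 23 (0.91, SE 0.19, adjusted p = 0.00328). Its call on day 1 (0.60, adjusted p = 0.0181) was lost without replicate 10, 11 or 15 (adjusted p = 0.0997, 0.0579 and 0.120), and its fall from day 1 to day 2 (-0.66, adjusted p = 0.0117) without replicate 15 or 17 (0.0722 and 0.0712).

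Adm, which encodes the vasodilator peptide adrenomedullin, was at 33.7, 25.8 and 38.1 CPM at hour 0 and 362, 281 and 300 at hour 3, a 9.65-fold rise (3.27, SE 0.31, adjusted p = 9.8e-10). On day 8 it was at 26.7, 18.3 and 29.3 CPM and overlapped hour 0. Adm on day 1 (0.87, adjusted p = 0.031) lost its call without replicate 10, 11, 13 or 15 (adjusted p 0.0592 to 0.149). Ndrg1, a stress-responsive gene, was at 59.9, 83.5 and 56.4 CPM at hour 0 and 401, 273 and 263 at hour 3, a 4.69-fold rise (2.23, SE 0.22, adjusted p = 2.28e-09). In no other group was Ndrg1 called against hour 0, and its libraries there ran from 49.0 to 105 CPM.

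P4ha1 and P4ha2 encode the catalytic subunits of collagen prolyl hydroxylase, which hydroxylates collagen so that its helix is stable. P4ha1 was at 142, 110 and 117 CPM at hour 0, 343, 261 and 256 at hour 3, 337, 297 and 361 on day 1, and 154, 145 and 185 on day 2. It was at 82.3, 77.4 and 87.3 CPM on day 8 and 158, 146 and 120 on day 23. It rose at hour 3 (1.22, SE 0.17, adjusted p = 8.63e-07; 0.04 and no call with library totals) and on day 1 (1.43, SE 0.17, adjusted p = 1.01e-07), fell from day 1 to day 2 (-1.04, SE 0.17, adjusted p = 6.52e-05) and rose from day 8 to day 23 (0.78, SE 0.17, adjusted p = 0.00492). On day 8 it was below hour 0 (-0.58, adjusted p = 0.00917; 0.0581 without replicate 10). P4ha2 on day 1 (0.72, adjusted p = 0.0207) lost its call without replicate 12 or 15 (adjusted p = 0.126 and 0.124), and on day 8 (-0.63, adjusted p = 0.0308) without replicate 1, 2, 3, 10 or 11 (adjusted p 0.0549 to 0.132).

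Egln3 and Egln1 encode prolyl hydroxylases PHD3 and PHD2, the oxygen sensors that mark HIF-1 alpha and are themselves raised by HIF. Egln3 (ENSMUSG00000035105, chromosome 12, 54178981 to 54203860) was at 4.26, 3.06 and 3.14 CPM at hour 0, 5.47, 1.85 and 3.35 at hour 3, 2.17, 0.696 and 6.43 on day 1, and 2.40, 2.50 and 0.522 on day 2. On day 8 it was at 13.1, 16.4 and 20.6 CPM, above all other libraries, and on day 23 at 4.10, 5.24 and 3.08. The rise on day 8 was 4.68-fold against hour 3 (2.23, SE 0.55, adjusted p = 0.00202) and 4.78-fold against hour 0 (2.26, SE 0.55, adjusted p = 0.00271). Its fall from day 8 to day 23 (-1.98, adjusted p = 0.0307) was lost without replicate 2, 3, 7 or 9 (adjusted p = 0.0922, 0.130, 0.0519 and 0.0944). Egln1 was at 46.3 to 52.9 CPM at hour 0 and fell to 25.2 to 28.1 on day 1 (-0.88, SE 0.22, adjusted p = 0.00329). From hour 3 to day 8 Egln1 was higher (0.59, adjusted p = 0.0374), a call lost without replicate 2, 3, 4 or 5 (adjusted p = 0.0693, 0.219, 0.140 and 0.112) and in the fit of those 9 libraries (0.0736).

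The remaining members were low or, with TMM, flat. Bnip3, a mitophagy receptor, lay between 9.01 and 26.0 CPM in all 18 libraries. With library totals Bnip3 was called lower at hour 3 than at hour 0 (-1.37, adjusted p = 0.000136). On that scale it rose from hour 3 to day 8 (1.33, adjusted p = 0.00024). Ankrd37 held 0, 20 and 20 counts at hour 0 and 2, 1 and 0 at hour 3, and its call there (adjusted p = 0.0279) was lost without replicate 5, 6, 11 or 12 (adjusted p 0.0556 to 0.0997). Car9, the carbonic anhydrase used as a marker of hypoxic tumours, held 33, 0 and 9 counts at hour 0 and 0 to 9 in each other library. No fold is given for Ankrd37 or Car9, since they rest on so few counts, and 54.6% of the Car9 level on day 1 lay within the estimated background.

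The counts of the glycolytic group and of the HIF targets outside glycolysis are set side by side here, with no test of the difference. Of 22 glycolytic enzymes, regulators and transporters 13 rose and 4 fell at hour 3, 14 rose and 3 fell on day 1, 11 rose and 1 fell on day 2, 14 rose and 3 fell on day 8, and 7 rose and 1 fell on day 23. Of the 10 HIF targets 4 rose and 1 fell at hour 3, 4 rose and 1 fell on day 1, 1 rose and 2 fell on day 8, and 1 rose on day 23. Of all genes tested 16.9%, 9.67%, 5.12%, 11.2% and 8.51% were called higher at hour 3, day 1, day 2, day 8 and day 23. The shares called lower were 43.1%, 12.8%, 9.63%, 32.7% and 25.4%. The rises among HIF targets on day 8 and day 23 were thus near the share of all genes. On day 2 edgeR called 0 of the 10, with 3 at an unadjusted p under 0.05 (P4ha1 and P4ha2 higher, Egln1 lower) and a lowest adjusted p of 0.125, while the DESeq2 test called 2. With library totals 6 of the 22 rose and 9 fell at hour 3, and 3 of the 10 rose and 5 fell. On that scale 9 of the 22 and 1 of the 10 rose on day 8, and 1 of the 22 and 0 of the 10 on day 23. The median log2 fold changes of the glycolytic group were 0.78, 1.44, 0.69, 0.78 and 0.21, and those of the HIF targets -0.01, 0.30, 0.03, -0.21 and 0.13. Without Ankrd37 and Car9, which rest on few counts, the medians of the other 8 HIF targets were 0.63, 0.49, 0.03, -0.02 and 0.24, so that the groups lay close at hour 3 and on day 23. The HIF targets differed among themselves: at hour 3 Adm (3.27), Vegfa (3.17) and Ndrg1 (2.23) stood beside Ldha (2.87) and Hk1 (1.80), while Egln3, Egln1, Bnip3 and P4ha2 gave values between -0.27 and 0.03. With library totals Adm, Vegfa and Ndrg1 were at 2.10, 2.00 and 1.04, and Egln3, Egln1, Bnip3 and P4ha2 between -1.44 and -1.16.

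**Figure D3:**
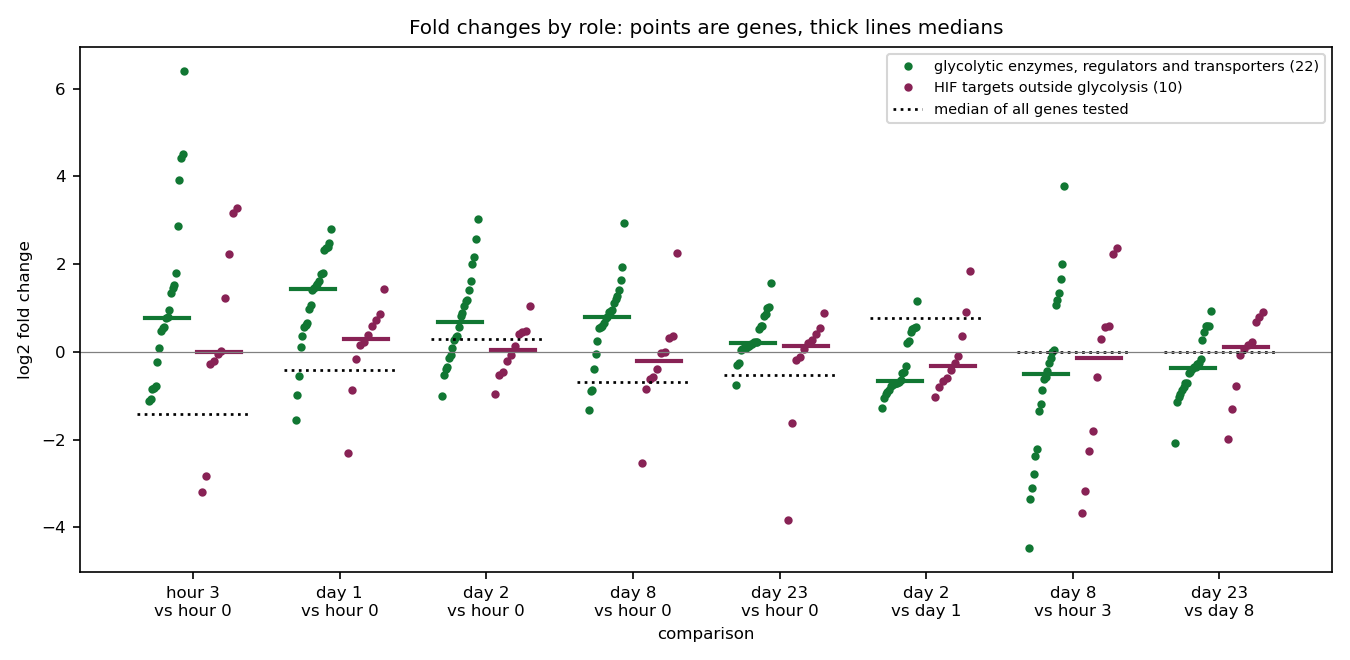
Log2 fold change (vertical axis) in each of 8 comparisons (horizontal axis), with 22 glycolytic enzymes, regulators and transporters in green and 10 HIF targets outside glycolysis in purple. Each point is a gene, a thick line the median of the group and a dotted line the median of all 27525 genes tested. The green median is above the purple one in all 5 comparisons with hour 0 and below it in the 3 steps between later times; without Ankrd37 and Car9 the order turns on day 23 (0.21 against 0.24) and from hour 3 to day 8 (-0.50 against -1.19).

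The steps within a set are given for the same groups. From day 1 to day 2, 10 of 22 fell, or 7 by the DESeq2 test and 5 with library totals. Among 10 HIF targets 2 fell (Vegfa and P4ha1), or 1 under each of those alternatives, where Vegfa lost its call. Of all genes 11.2% were called lower in that step. From hour 3 to day 8, 11 fell and 6 rose in the glycolytic group, against 4 and 2 among the HIF targets, while with library totals 6 fell and 9 rose, against 4 and 4. Of all genes 14.1% were called lower and 16.5% higher in that step. The medians of the glycolytic group and the HIF targets were -0.50 and -0.14, or -0.50 and -1.19 without Ankrd37 and Car9. All 4 transporters fell in that step, by 2.79 (Slc2a1), 2.36 (Slc2a3), 3.35 (Slc16a1) and 1.18 (Slc16a3) on the log2 scale, the last with an adjusted p of 0.0153 that was lost without replicate 1 or 5 (0.0630 and 0.0581) and with library totals. Hk2 fell by 4.47, Pfkfb3 by 3.11 and Ldha by 2.21. Of the smaller falls, that of Pfkp (-0.62) was lost without replicate 2 or 4 (adjusted p = 0.0772 and 0.221), that of Gapdh (-0.57) without replicate 1, 3 or 4 (0.0851, 0.0559 and 0.137) and that of Pfkfb4 (-1.34) without replicate 4 (0.0772); with library totals Pfkp and Gapdh turned to 0.17 and 0.20. From day 8 to day 23, 5 of 22 fell and 0 rose, with 2 higher at an unadjusted p under 0.05 and 0 by the DESeq2 test, while of the 10 HIF targets 2 rose and 1 fell. Of all genes 2.25% were called higher and 3.08% lower in that step. The 5 glycolytic falls were Aldoc, Gapdh, Eno1, Pdk1 and Slc2a1, where Gapdh (-0.71, adjusted p = 0.027) was lost without replicate 2, 3, 7 or 9 (adjusted p 0.0595 to 0.0974).

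Within several enzyme families the shares of the isozymes, as percent of the family's counts per kb of exon, moved over time. These shares do not depend on the scaling between libraries, and are given as mean ± SD (n = 3) with no test. Hk2 made up 31.6% ± 4.76 of hexokinase at hour 0 and 92.6% ± 0.854 at hour 3, then 57.6% ± 5.36 on day 1, 77.5% ± 6.84 on day 2, 49.4% ± 6.77 on day 8 and 49.6% ± 9.63 on day 23. Ldha made up 60.0% ± 5.60 of lactate dehydrogenase at hour 0, 94.4% ± 0.434 at hour 3, 92.9% ± 0.398 on day 1 and 87.3% ± 1.11 on day 2, and 52.2% ± 5.72 and 54.1% ± 5.83 on day 8 and day 23. Day 8 and day 23 overlapped hour 0, and Ldhb, the subunit of oxidative tissues, made up the rest. The hour 3 libraries of Hk2, Ldha and Pfkfb3 shared no range with hour 0. Pfkfb3 went from 35.3% ± 4.34 of the bifunctional enzymes at hour 0 to 92.9% ± 3.02 at hour 3.

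Among the pyruvate dehydrogenase kinases Pdk1 never held more than a small share, from 0.496% ± 0.0795 at hour 3 to 7.18% ± 2.05 on day 2. An estimated 17.3% of the Pdk1 level on day 2 lay within background, against 0.914% at hour 3. Pdk4, the form known from fasting and from glucocorticoid and PPAR signals, took 94.1% ± 0.511 at hour 3 after 15.9% ± 2.34 at hour 0. Eno1 was 52.7% ± 6.12 of enolase at hour 0 and 86.6% ± 1.80 on day 8. Pfkl was 20.9% ± 0.908 of phosphofructokinase at hour 0, 11.9% ± 5.09 at hour 3 and 38.5% ± 7.58 on day 1. Egln3 was 15.1% ± 1.96 of the 3 prolyl hydroxylases on day 8 and 2.98% to 5.61% on average in the other groups.

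**Figure D4:**
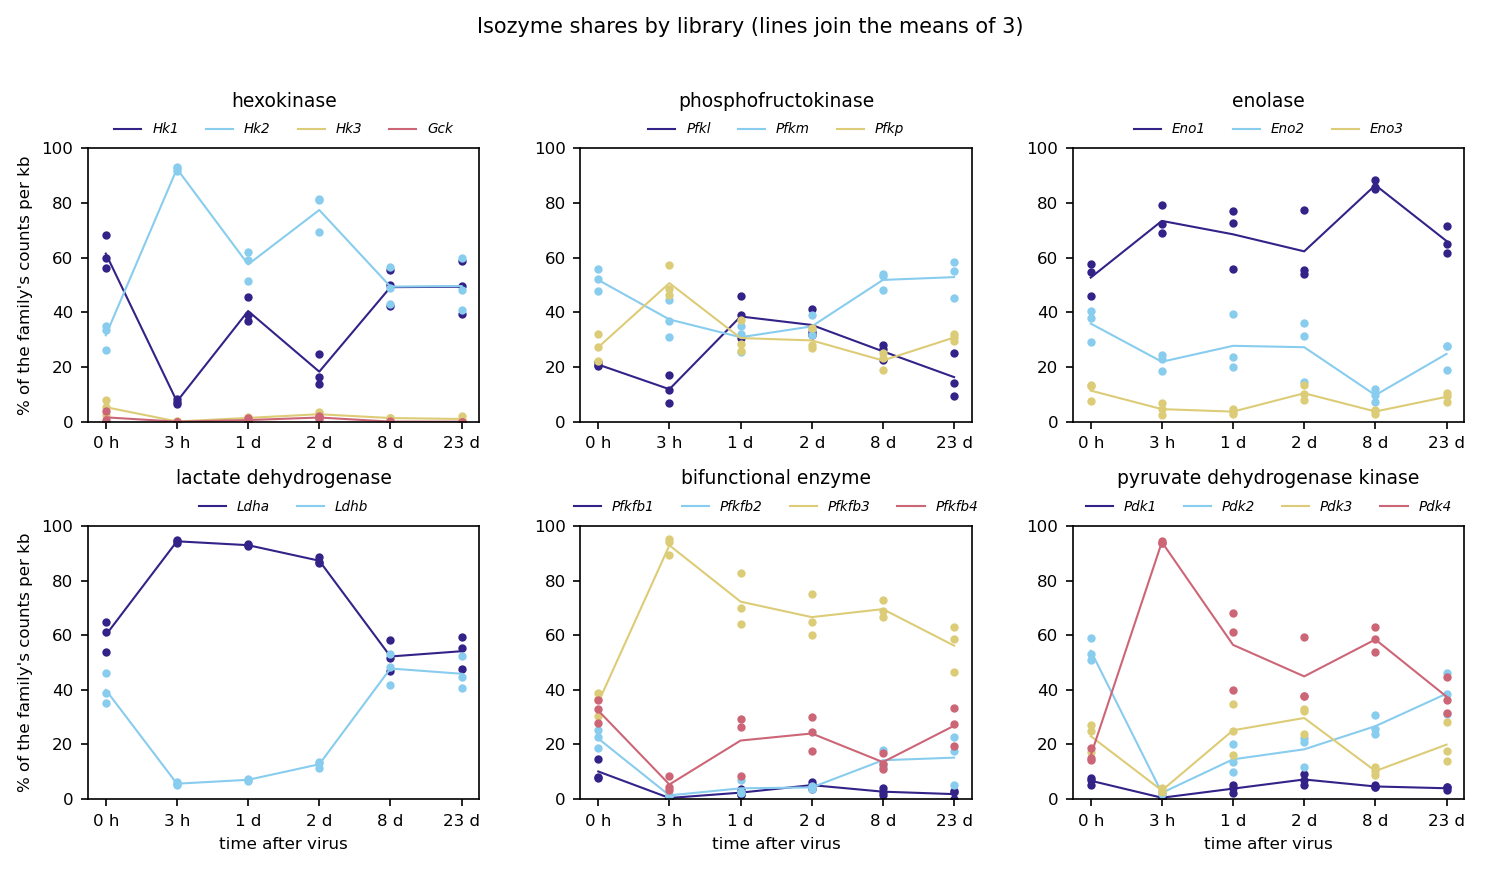
Share of each isozyme (percent of the family's counts per kb of exon, vertical axis) for 6 enzyme families at 6 times. Points are single libraries and lines join the means of 3. At 3 h Hk2, Ldha, Pfkfb3 and Pdk4 hold means of 92.6%, 94.4%, 92.9% and 94.1% of their families.

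Other genes of the pathway were taken from lists of the same kind. Of 25 other glycolysis and pyruvate genes 5 rose and 11 fell at hour 3, 2 and 4 on day 1, 1 and 6 on day 2, 9 and 5 on day 8, and 5 and 5 on day 23. The counts of hour 3 and day 1 are near the shares of all genes, 16.9% higher and 43.1% lower at hour 3 and 9.67% and 12.8% on day 1. These shares were 5.12% and 9.63% on day 2, 11.2% and 32.7% on day 8, and 8.51% and 25.4% on day 23. The falls of day 2 and the rises of day 8 and day 23 were above them. Pdk4 rose from a mean of 14.1 to 642 CPM at hour 3 (5.50, SE 0.40, adjusted p = 2.96e-12) and was still higher on day 8 (3.61) and day 23 (2.30). Bpgm, which makes 2,3-bisphosphoglycerate, rose at hour 3 (2.03) and day 2 (2.38), and Pdk2 fell on day 1 (-2.09) and day 2 (-2.24). Ldhb fell on day 1 (-1.62, SE 0.26, adjusted p = 1.57e-05) and rose on day 8 (1.11, SE 0.25, adjusted p = 0.00136).

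Among 8 other components of the HIF pathway 2 rose and 2 fell at hour 3, where 16.9% of all genes were called higher and 43.1% lower. The counts of hour 3 are near or below those shares. At most 3 of the 8 were called in any other comparison, where 5.32% to 43.9% of all genes were called in either direction. Arnt, the partner of HIF-1 alpha, rose at hour 3 (1.26, SE 0.15, adjusted p = 4.83e-08). Epas1, which encodes HIF-2 alpha, fell from a mean of 343 CPM at hour 0 to 124 on day 1 (-1.46, SE 0.18, adjusted p = 1.45e-07) and 70.8 on day 2 (-2.28, SE 0.18, adjusted p = 1.47e-10). Cited2, a HIF-induced inhibitor of HIF, was called higher at hour 3, day 1, day 8 and day 23 (0.91, 1.23, 0.63 and 0.74).

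Of 20 other HIF targets 10 rose and 5 fell at hour 3, 9 and 3 on day 1, 8 and 4 on day 2, 6 and 3 on day 8, and 6 and 4 on day 23, beside 16.9%, 9.67%, 5.12%, 11.2% and 8.51% of all genes called higher at these times. Hmox1, the haem oxygenase (log2 fold change 5.43, SE 0.28, adjusted p = 4.3e-15), and Angptl4, an inhibitor of lipoprotein lipase (3.96), rose at hour 3. On day 1 Nos2, the inducible nitric oxide synthase, rose from a mean of 2.38 to 83.6 CPM (5.08, SE 0.33, adjusted p = 1.05e-12). Car12, a membrane carbonic anhydrase like Car9, was highest on day 8 (2.57, SE 0.34, adjusted p = 2.93e-06) and fell from day 8 to day 23 (-1.56, adjusted p = 0.0041). In the pentose phosphate and serine branch, which draws on glycolytic intermediates, 6 of 11 genes rose on day 1 (9.67% of all genes), and 7 fell from day 1 to day 2 (11.2%). Pgd rose on day 1 (1.68, SE 0.18, adjusted p = 2.3e-08) and Taldo1 on day 8 (2.06, SE 0.22, adjusted p = 1.31e-07).

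Markers of other cells moved beside these genes. At hour 3 the summed level of 8 neutrophil markers was 37.2 to 47.7 CPM, against 6.00 to 9.29 at hour 0, with Elane and Ly6g at 0, and that of 8 macrophage, monocyte and dendritic cell markers was 46.7 to 67.5, against 16.8 to 24.7. On day 8, where Aldoc, Pdk1 and Egln3 were highest, the sum of 6 epithelial markers was 2407 to 2904 CPM against 341 to 545 at hour 0 and 810 to 1127 at hour 3. In the same libraries 6 cell cycle genes summed to 246 to 367 CPM (60.9 to 78.5 at hour 3), 6 blood endothelial markers to 128 to 153 (12.0 to 28.6) and 5 erythroid markers to 36.7 to 91.9 (5.92 to 7.30), and none of those markers was at 0. On day 1, where the lower trunk was highest, the sums were below those of hour 0 for 7 secretory markers (2401 to 3281 CPM against 31232 to 71248), 9 fibroblast markers (11069 to 15064 against 24495 to 28940), 6 mural markers (114 to 132 against 909 to 1420) and 4 glial markers (8.82 to 11.9 against 70.9 to 79.6), with no marker of these lists at 0. On day 2 the secretory sum was 223 to 1096 CPM. The part of these cells in the results was not tested.

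Some members share sequence with pseudogenes, and how reads that map to several places were counted is not given in the sources used here. Of the 50-base words in each member's transcripts, the share also found in another gene was 53.9% for Pgk1, 47.2% for Bnip3, 36.2% for Pgam1, 26.0% for Eno1, 25.8% for Pkm, 25.1% for Gapdh, 17.0% for Ankrd37 and 15.8% for Gpi1. Levels of these genes are uncertain on that account, and of the genes highest on day 1 from Gpi1 to Pkm all but Pfkl and Eno2 are among them. The counts of 10 annotated copies came to at most 1.10% of those of their members. Hk2, Slc16a1, Aldoc, Pdk1, Egln3 and Adm shared no such word with any other gene.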

How the data were processed

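RNA sequencing counts were read in 18 libraries, 6 groups of 3. The authors deposited raw read counts per Ensembl gene. The submitters' processing notes name FastQC, STAR, Subread, DESeq2 and mm10; versions, annotation release, strand setting and the treatment of reads that map to several places are not given in the sources used here. Of 55401 gene identifiers 55141 matched GENCODE's mouse annotation of GRCm38, which gave symbols and exon lengths, and the other 260 held 0.0241% of counts. edgeR 4.0.16 (R 4.3.3, limma 3.58.1) was fitted to all libraries, with filterByExpr (minimum count 10, minimum total 15), TMM scaling and the quasi-likelihood test for 8 comparisons and for any change, two-sided, with Benjamini-Hochberg adjustment over 27525 genes and a threshold of 0.05. SE is the log2 fold change divided by the root of F. Nothing says how the replicates were raised, so p-values measure the spread between these libraries. The background share of a gene is the receptor rate times its exon length. Alternatives were DESeq2 1.42.0 size factors and test, library totals, no filter, at least 5 CPM in 3 libraries, only the groups or the set compared, each library left out, and, chosen after seeing the data, no day 2 libraries and HIF target medians without Ankrd37 and Car9. The procedure was also run on simulated counts with known changes on day 1 only. These had the same spread for all genes and no difference in background, so they do not bear on the scaling or the sets. The members and lists were chosen with earlier results of these data known, and the members were all described. Of each other list, up to 3 called genes per comparison, those with the greatest change and a mean of at least 10 CPM in the higher group, could be named.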

Additional observations from a re-analysis of the deposited data

How the results depend on the processing

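No paired analysis was possible because each replicate number belongs to 1 library. Single members gave 135 called values; of 3428 recomputed ones 3183 kept direction and call, 239 kept direction only and 6 reversed, all with library totals: at hour 3 against hour 0 Gpi1 (-0.63), Pfkp (-0.61), Pgk1 (-0.24) and Pkm (-0.40), and on day 8 against hour 3 Pfkp (0.17) and Gapdh (0.20). Of the 135, 93 held in every fit that left out 1 library and 79 under every alternative. Counts of members called higher moved by over 1.5 times as follows. At hour 3 the 18 became 10 with library totals, and on day 8 the 16 became 10. On day 23 the 9 became 5 with DESeq2 size factors, 1 with library totals, 5 at 5 CPM, 3 in the 2 groups alone and 5 without the day 2 libraries. From day 1 to day 2 the 1 became 3 with size factors, 4 with library totals, 0 with no filter, 3 at 5 CPM, 3 by the DESeq2 test, 0 in the 2 groups alone and 0 in the set of 9. From hour 3 to day 8 the 8 became 13 with library totals. Of counts called lower, the 5 at hour 3 became 14 with library totals. The 4 on day 1 became 2 with no filter, 1 in the 2 groups alone and 2 in the set of 9, the 1 on day 2 became 2 in the 2 groups alone, the 5 on day 8 became 1 with no filter, and the 1 on day 23 became 3 with library totals. From day 1 to day 2 the 12 became 7 with size factors, 6 with library totals and 19 with no filter, and from day 8 to day 23 the 6 became 10 with no filter. With 1 library left out, counts higher ran from 5 to 9 on day 23 and from 0 to 3 from day 1 to day 2; counts lower ran from 2 to 4 on day 1, 1 to 2 on day 2, 1 to 5 on day 8, 0 to 2 on day 23, 7 to 14 from day 1 to day 2 and 3 to 7 from day 8 to day 23. The cause was not tested, except that the 2 groups alone and the set of 9 use fewer libraries. Depth limits Car9, Ankrd37, Aldoc and Egln3 most: the first 2 had at most 33 counts in a library.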
